A study of Homo sapiens with 6 samples.

Results

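The genes described here are 10 components and readouts of bone morphogenetic protein (BMP) signalling. They are the secreted antagonists NOG (noggin) and SOSTDC1, the ligands BMP2, BMP4 and BMP7, and the target genes ID1, ID2, ID3, SMAD6 and SMAD7. All 10 were found by symbol among the 29744 symbols of the deposited count table, and all 10 were among the 14958 symbols that passed the filter on low counts. NOG and SOSTDC1 were chosen by their measured count differences between the lines in these libraries, so their values are a description and carry no test. The question put to the data was whether the differences in the antagonists go with differences in the ID and SMAD target genes.

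The 6 RNA sequencing libraries come from 3 human gastric tumour lines in culture, 2 from each. MKN45 is an established gastric cancer line and is the sensitive parent. HER2R (MKN45-HER2 or MKN_HER2R in the labels) is a derivative resistant to a HER2-TCB, and CEAR (MKN45-CEAR or MKN_CEAR) is a derivative resistant to a CEACAM5-TCB, where TCB is the usual short form of a T cell bispecific antibody. All 3 lines grew in DMEM/F-12 with 10% FBS, and the labels give their treatment as none. Nothing in the labels says whether a derivative is a clone, whether antibody was present during growth, or whether paired libraries are biological or technical repeats. The p-values therefore measure only the spread between these libraries, which may be technical.

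BMP ligands are secreted dimers that bind type I and type II serine/threonine kinase receptors. The receptors phosphorylate SMAD1, SMAD5 and SMAD9, which join SMAD4 in the nucleus and activate target genes, among which ID1, ID2 and ID3 are widely used readouts. ID proteins bind E proteins and keep them from DNA, and the inhibitory SMAD6 and SMAD7 are target genes that feed back on the receptors. Noggin binds BMP ligands outside the cell and blocks their access to the receptors, while SOSTDC1 binds BMP ligands and also the WNT co-receptors LRP5 and LRP6. In the stomach, BMP signalling is known for its part in the differentiation of the gastric epithelium.

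Promoter sequences are shown for 2 of the target genes, SMAD6 and ID1. RefSeq promoter windows (GRCh38.p14, the 250 bases before each annotated start) matched 6 of the 10 genes, namely BMP4, ID1, ID2, ID3, SMAD6 and SMAD7. These windows were searched on both strands for GTCTAGAC, the palindromic SMAD-binding element, and for the GC-rich SMAD element GGCGCC. Each motif is its own reverse complement, the motifs do not overlap one another, and they were chosen after the promoter sequences had been seen. SMAD6 is shown because its window (chr15:66701986-66702235, plus strand) holds GTCTAGAC, in capitals, with the first base 12 bases before the start. ID1 is shown for comparison, and its window (chr20:31605039-31605288, plus strand) holds neither motif.
SMAD6: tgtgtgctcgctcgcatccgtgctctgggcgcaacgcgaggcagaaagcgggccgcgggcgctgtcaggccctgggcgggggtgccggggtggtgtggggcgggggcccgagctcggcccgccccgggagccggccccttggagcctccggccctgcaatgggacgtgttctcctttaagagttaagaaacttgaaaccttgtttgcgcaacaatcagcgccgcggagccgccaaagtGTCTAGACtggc
ID1: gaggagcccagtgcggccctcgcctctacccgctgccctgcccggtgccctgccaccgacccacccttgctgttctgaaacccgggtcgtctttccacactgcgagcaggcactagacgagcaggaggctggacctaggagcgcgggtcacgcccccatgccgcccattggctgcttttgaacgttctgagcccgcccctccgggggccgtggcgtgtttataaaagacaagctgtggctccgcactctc
Of 35116 RefSeq windows of this length, 64 (0.182%) held GTCTAGAC and 5752 (16.4%) held GGCGCC. The GC-rich element was found in 1 of the 3 windows of BMP4, starting 232 bases before the start. The windows of ID2, ID3 and SMAD7 held neither motif. A match describes the letters only, and no match says only that these letters are not in this window.

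Library totals ran from 39657353 to 57964246 counts, so that 1 count equals 0.0177 to 0.0255 CPM, the count scaled to a common library size. The labels number the libraries of a line without saying what the number marks. A fit with that number as a further term (the block) is given for the ligands and target genes named at the start where it changes a call. For other genes it is given for some contrasts only, so a contrast given without it may still change. Gastric epithelial markers were detected for 9 of 10 genes, with GKN1 at 0 counts, and their summed level was 10479 to 12867 CPM in MKN45, 11886 to 15583 in HER2R and 8410 to 10378 in CEAR. KRT8 alone made 4228 to 7699 CPM of that sum, which hides single markers. CLDN18, a stomach claudin, was at 2.09 to 2.83 CPM in MKN45 and HER2R and at 46.9 and 30.8 in CEAR, called higher there than in MKN45 (log2 fold change 4.06, edgeR adjusted p = 0.00241). MUC5AC, a foveolar mucin, was at 4.11 and 82.1 CPM in MKN45, at 0.153 and 3.32 in HER2R and at 99.6 and 366 in CEAR, lower in HER2R than in CEAR (-7.07, edgeR adjusted p = 0.0464). MUC5AC, TFF1 and TFF2 were higher in library 2 than in library 1 of every line, TFF1 at 10.1 and 173 CPM in MKN45. The part of these marker differences in any result was not tested. The fibroblast markers COL3A1, PDGFRA and DCN, the T cell markers CD3D and CD2 and the endothelial markers CDH5 and KDR were at 0 counts in every library. The summed level of the 6 fibroblast markers was 0.932 to 1.77 CPM in MKN45, 3.55 to 7.49 in HER2R and 1.12 to 1.81 in CEAR, that of the 5 matched T cell markers at most 0.0765 CPM and that of the 4 endothelial markers at most 0.255 CPM. The higher sum in HER2R was COL1A1, at 7.44 and 3.55 CPM there, 1.68 and 0.591 in MKN45 and 1.69 and 1.101 in CEAR, which passed only with the block in HER2R against MKN45 (edgeR adjusted p = 0.0564 without it and 0.000827 with it). LUM was at 5 and 15 counts in MKN45 and at 0 in the other 4 libraries. The part of what COL1A1 marks in any result was not tested. In cultures of this kind, fewer cells expressing a gene and less RNA of that gene per cell cannot be told apart.

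SOSTDC1 was the more abundant of the 2 antagonist transcripts in MKN45 and was at or next to 0 in both derivatives, and NOG was abundant in HER2R and at 7 to 13 counts a library in MKN45 and CEAR. CEAR thus had low counts of both. NOG (ENSG00000183691.4, GRCh38 chr17:56593699-56595590, plus strand) overlaps no other annotated gene. It was at 0.124 and 0.273 CPM in libraries 1 and 2 of MKN45, at 34.6 and 22.9 CPM in HER2R, and at 0.313 and 0.270 CPM in CEAR. The counts behind these levels were 7 and 12 for MKN45, 1358 and 896 for HER2R and 13 and 12 for CEAR. Both HER2R libraries lay far above the other 4, and the MKN45 and CEAR libraries overlapped. The mean was 28.7 ± 8.30 CPM (SD, n = 2) in HER2R and 0.198 ± 0.105 CPM in MKN45, a fitted log2 fold change of 7.22 (SE 0.421), or 149-fold. Without library 2 of MKN45 it was 7.82. Against CEAR (0.291 ± 0.031 CPM) the NOG log2 fold change of HER2R was 6.61 (SE 0.405), and CEAR against MKN45 gave 0.60 (SE 0.687).

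SOSTDC1 (ENSG00000171243.7, chr7:16461481-16530580, minus strand) was at 23.4 and 17.7 CPM in MKN45 (1319 and 779 counts), at 0 and 0.026 CPM in HER2R (0 counts and 1 count), and at 0 in both CEAR libraries. LRRC72 lies on the opposite strand within this span and shares no exonic base with it. The derivatives did not overlap with MKN45, whose mean was 20.5 ± 3.996 CPM (SD, n = 2). The ratio of summed counts put HER2R 1639-fold lower than MKN45, with a 95% counting interval of 294 to 64770. CEAR was at least 599-fold lower, taking a floor of 3 counts over its libraries. On the log2 scale these are -10.68 and -9.23. Leaving out a library moves the HER2R ratio to -9.68 without its library 1 and, with the 0 then set at the floor, to -8.10 without its library 2, and the CEAR bound to -8.28 and -8.17 without its library 1 or 2. Intervals and floors cover counting error only. No fold was computed between HER2R and CEAR, since both were at or under the floor.

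**Figure D1:**
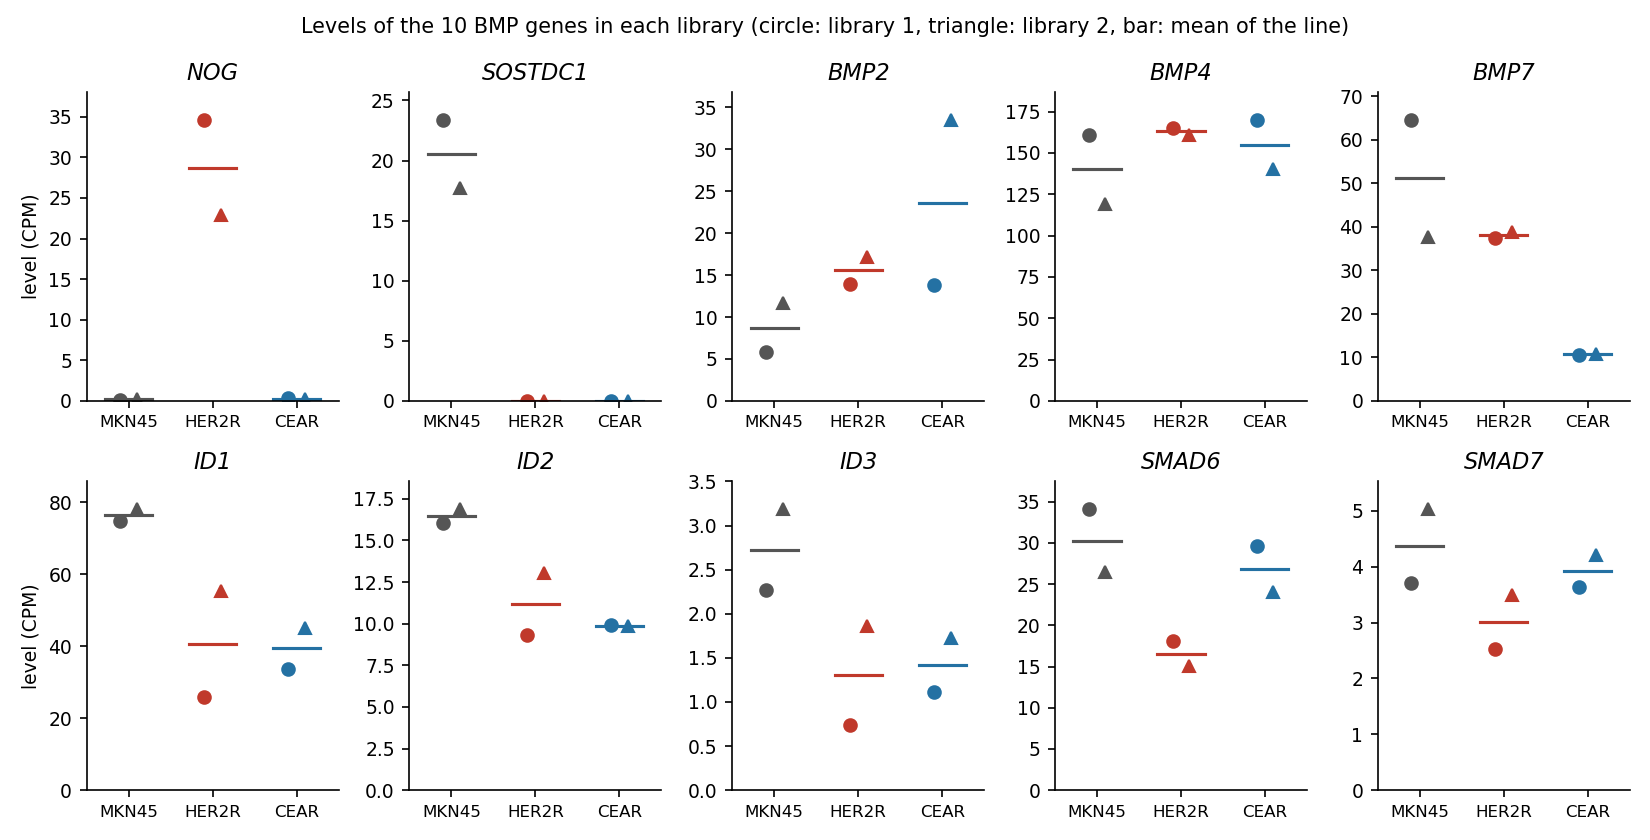
Level in CPM (linear axis from 0, own scale per gene) of each of the 10 genes in the 2 libraries of MKN45, HER2R and CEAR; circles are library 1, triangles library 2 and bars the mean of a line. NOG stands out in HER2R at 34.6 and 22.9 CPM, SOSTDC1 in MKN45 at 23.4 and 17.7 CPM, and BMP7 is lowest in CEAR at 10.6 and 10.7 CPM.

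The genes whose profiles over the 6 libraries were nearest to the antagonists give a view of what else has that pattern. Likeness was the root mean square difference of centred log2(CPM + 0.5), over 10035 tested genes that are named protein genes with a mean of 5 CPM or more. For NOG the nearest were RGS2, a regulator of G-protein signalling, at 0.419, ARSJ, a sulfatase family member, at 0.429, and CELF2, an RNA-binding protein, at 0.474. RGS2 was at 1.82 and 1.66 CPM in MKN45, at 53.5 and 59.2 in HER2R and at 2.22 and 1.17 in CEAR. For SOSTDC1 the nearest were WNT16, a WNT ligand, at 0.303, GAP43, a growth cone protein, at 0.611, and MYO7B, a brush border myosin, at 0.897. WNT16 was at 19.6 and 23.7 CPM in MKN45, at 0.306 and 0.306 in HER2R and at 0.169 and 0.135 in CEAR. GAP43 was at 66.8 and 35.4 CPM in MKN45 and at 0 in all 4 libraries of the derivatives. These are descriptions over the same 6 libraries and carry no test.

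Among the ligands, BMP4 was the main transcript per exon length in every library. Against MKN45, BMP7 was called lower in CEAR and not in HER2R, and BMP2 was called higher in both derivatives by edgeR with library number in the model and in neither without it. BMP4 (chr14:53949736-53958761, minus strand) was at 161 and 119 CPM in MKN45, at 165 and 161 in HER2R and at 170 and 140 in CEAR. Its libraries overlapped between all lines. The log2 fold changes of BMP4 were 0.22 (SE 0.182, edgeR adjusted p = 0.476) in HER2R and 0.15 (SE 0.182, edgeR adjusted p = 0.695) in CEAR against MKN45, with 95% intervals of -0.22 to 0.66 and -0.29 to 0.58.

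BMP7 (chr20:57168748-57266629, minus strand) was at 64.5 and 37.7 CPM in MKN45, at 37.3 and 38.9 in HER2R and at 10.6 and 10.7 in CEAR. The CEAR libraries lay below the other 4, and the HER2R libraries overlapped with MKN45. BMP7 fell in CEAR by 2.26 on the log2 scale against MKN45 (SE 0.265, edgeR adjusted p = 0.00898), that is 4.79-fold. This call held with each of the 6 libraries left out in turn, at adjusted p from 0.00686 to 0.0462. HER2R stood above CEAR by a BMP7 log2 fold change of 1.84 (SE 0.263, edgeR adjusted p = 0.0125). That call ended without library 1 of HER2R (adjusted p = 0.0724), library 2 of HER2R (0.0836), library 1 of CEAR (0.0522) or library 2 of CEAR (0.0592). HER2R against MKN45 gave -0.42 for BMP7 (SE 0.249, edgeR adjusted p = 0.316), and without library 1 of MKN45 the value was 0.02.

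BMP2 (chr20:6767664-6780280, plus strand) was at 5.81 and 11.7 CPM in MKN45, at 14.0 and 17.2 in HER2R and at 13.8 and 33.5 in CEAR. All 4 libraries of the derivatives lay above both MKN45 libraries, and library 2 exceeded library 1 in every line, 2.01-fold in MKN45, 1.23-fold in HER2R and 2.43-fold in CEAR. Without a term for library number, BMP2 did not pass in HER2R (log2 fold change 0.84, SE 0.487, edgeR adjusted p = 0.309) or in CEAR (1.44, SE 0.486, edgeR adjusted p = 0.140) against MKN45. With library number as a block, both passed, at 0.92 (edgeR adjusted p = 0.0173) in HER2R and 1.40 (edgeR adjusted p = 0.00329) in CEAR. DESeq2 without a block called BMP2 in CEAR (1.44, adjusted p = 0.0250) and not in HER2R. The value without the block in CEAR fell to 0.67 without library 2 of CEAR.

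Per kilobase of annotated exon, BMP2, BMP4 and BMP7 summed to 65.8 and 48.8 CPM per kb in MKN45. The sum was 64.3 and 64.2 in HER2R and 60.9 and 56.7 in CEAR. BMP4 made up 79.1% to 90.5% of that sum in every library. The share of BMP7 was 18.1% and 14.3% for MKN45, 10.7% and 11.2% for HER2R and 3.22% and 3.48% for CEAR. On the same per-length scale, NOG amounted to 28.4% and 18.8% of the summed ligand level in HER2R, 0.0997% and 0.296% in MKN45, and 0.272% and 0.251% in CEAR. SOSTDC1 amounted to 14.4% and 14.7% of it in MKN45 and at most 0.0161% in any library of the derivatives. These are transcript levels from total RNA, and no protein was measured.

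**Figure D2:**
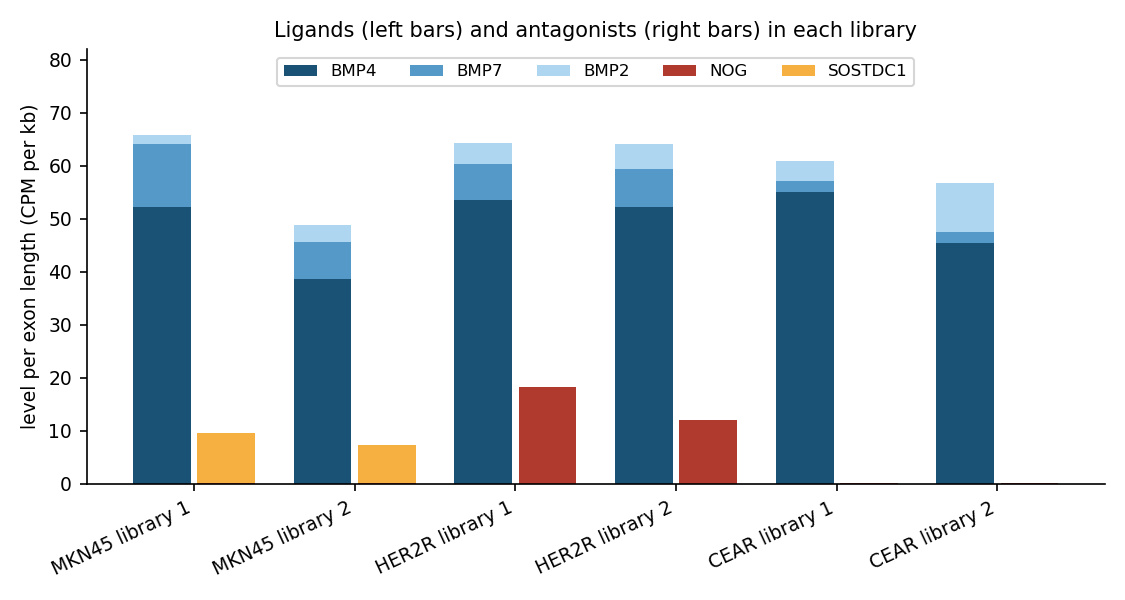
Level per kilobase of exon (CPM per kb, linear axis from 0) in each of the 6 libraries, with BMP4, BMP7 and BMP2 stacked in the left bar and NOG and SOSTDC1 in the right bar. The ligand sums lie between 48.8 and 65.8 CPM per kb, while the bar of NOG and SOSTDC1 is SOSTDC1 in MKN45, NOG in HER2R and close to 0 in CEAR. Other antagonists are not drawn, among them NBL1, at a mean of 28.5 CPM per kb in MKN45, 40.1 in HER2R and 31.4 in CEAR. Other ligands are not drawn either, among them BMP8A and BMP8B.

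The ID genes stood at lower mean levels in both derivatives than in MKN45, and NOG was abundant in HER2R and not in CEAR. ID1, ID2 and ID3 encode helix-loop-helix proteins without a DNA-binding region. ID1 (chr20:31605283-31606515, plus strand), whose promoter is printed above, was at 74.6 and 78.0 CPM in MKN45, at 25.7 and 55.4 in HER2R and at 33.8 and 45.1 in CEAR. All 4 libraries of the derivatives lay below both MKN45 libraries, and the HER2R libraries spanned those of CEAR. Against MKN45, ID1 gave -0.91 (SE 0.345, edgeR adjusted p = 0.144) in HER2R and -0.95 (SE 0.345, edgeR adjusted p = 0.162) in CEAR, neither past the threshold, and the value in HER2R moved to -1.57 without library 2 of HER2R. With library number as a block, ID1 passed in HER2R (-0.997, edgeR adjusted p = 0.00849) and in CEAR (-0.99, edgeR adjusted p = 0.0107).

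ID2 (chr2:8678845-8684453, plus strand) was at 16.0 and 16.9 CPM in MKN45, at 9.32 and 13.03 in HER2R and at 9.90 and 9.84 in CEAR. Again both derivatives lay below MKN45 without overlap. The antisense gene ID2-AS1 shares 38 exonic bases with ID2, and the strand setting of the counting is not given in the sources used here, so reads from those bases cannot be assigned. The log2 fold changes of ID2 were -0.56 (SE 0.213, edgeR adjusted p = 0.147, with the block 0.0348) in HER2R and -0.74 (SE 0.214, edgeR adjusted p = 0.0981, with the block 0.0159) in CEAR.

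ID3 (chr1:23557918-23559794, minus strand) was the lowest of the 3, also per exon length, and stood at 2.27 and 3.18 CPM in MKN45, at 0.739 and 1.86 in HER2R and at 1.11 and 1.73 in CEAR. The derivatives lay below MKN45 and overlapped with one another. Its log2 fold changes were -1.06 (SE 0.482, edgeR adjusted p = 0.207, with the block 0.0270) in HER2R and -0.92 (SE 0.469, edgeR adjusted p = 0.303, with the block 0.0490) in CEAR, and the value in HER2R moved to -1.87 without library 2 of HER2R. Library 2 exceeded library 1 for ID1 by 1.05-fold in MKN45, 2.15-fold in HER2R and 1.33-fold in CEAR, and for ID3 by 1.40-fold, 2.52-fold and 1.56-fold. The part of whatever library number marks in these values was not tested beyond the block.

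Summed over ID1, ID2 and ID3, the level was 95.5 ± 3.61 CPM (SD, n = 2) in MKN45, 53.1 ± 24.4 in HER2R and 50.7 ± 8.39 in CEAR. Directly compared, HER2R and CEAR gave log2 fold changes of 0.04 for ID1 (95% interval -0.78 to 0.87, edgeR adjusted p = 0.949), 0.18 for ID2 (-0.34 to 0.70, edgeR adjusted p = 0.611) and -0.13 for ID3 (-1.39 to 1.12, edgeR adjusted p = 0.889). The ID1 value changed sign to -0.01 with the block and to -0.05 with limma-voom. The intervals include differences of 0.78 or more on the log2 scale for ID1 in either direction, so these tests do not show that the lines had the same ID levels. The genes nearest in profile to the mean of the ID genes, by the same measure of likeness, were IFNAR2, an interferon receptor subunit, at 0.0888, CEACAM1, an adhesion molecule, at 0.120, and ADCY1, an adenylate cyclase, at 0.135. Like ID1, these 3 were higher in library 2 than in library 1 of both derivatives.

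Of the inhibitory SMAD genes, SMAD6 was called lower in HER2R, and neither SMAD6 nor SMAD7 passed in CEAR. SMAD6 (chr15:66702228-66782848, plus strand), which preferentially restrains BMP receptors and whose promoter is printed above, was at 34.1 and 26.4 CPM in MKN45, at 18.0 and 15.02 in HER2R and at 29.6 and 24.1 in CEAR. The HER2R libraries lay below the other 4, and those of CEAR overlapped with MKN45. SMAD6 fell in HER2R by 0.87 on the log2 scale against MKN45 (SE 0.205, edgeR adjusted p = 0.0473, with the block 0.00139), that is 1.83-fold. The call without the block is close to the threshold and ended with any 1 of the 6 libraries left out, at an adjusted p of 0.159 without library 1 and 0.0758 without library 2 of MKN45, 0.156 and 0.224 without those of HER2R, and 0.0643 and 0.0589 without those of CEAR. It also ended with limma-voom (adjusted p = 0.0520), without the filter (0.0638) and with the compared lines alone (0.0617). In CEAR against MKN45 the SMAD6 log2 fold change was -0.17 (SE 0.201, 95% interval -0.66 to 0.31, edgeR adjusted p = 0.669). HER2R against CEAR gave -0.70 (SE 0.205) for SMAD6, which did not pass without the block (edgeR adjusted p = 0.0690) and passed with it (edgeR adjusted p = 0.00330) or with DESeq2 (adjusted p = 0.0240).

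SMAD7 (chr18:48919853-48952052, minus strand), which restrains both BMP and TGF-beta receptors, was at 3.70 and 5.03 CPM in MKN45, at 2.52 and 3.49 in HER2R and at 3.64 and 4.20 in CEAR. The HER2R libraries lay below the rest and the CEAR libraries overlapped with MKN45. None of its comparisons passed with edgeR, with adjusted p = 0.301 in HER2R (log2 fold change -0.53, SE 0.301) and 0.821 in CEAR (-0.15, SE 0.292) against MKN45, nor did any pass with the block.

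**Figure D3:**
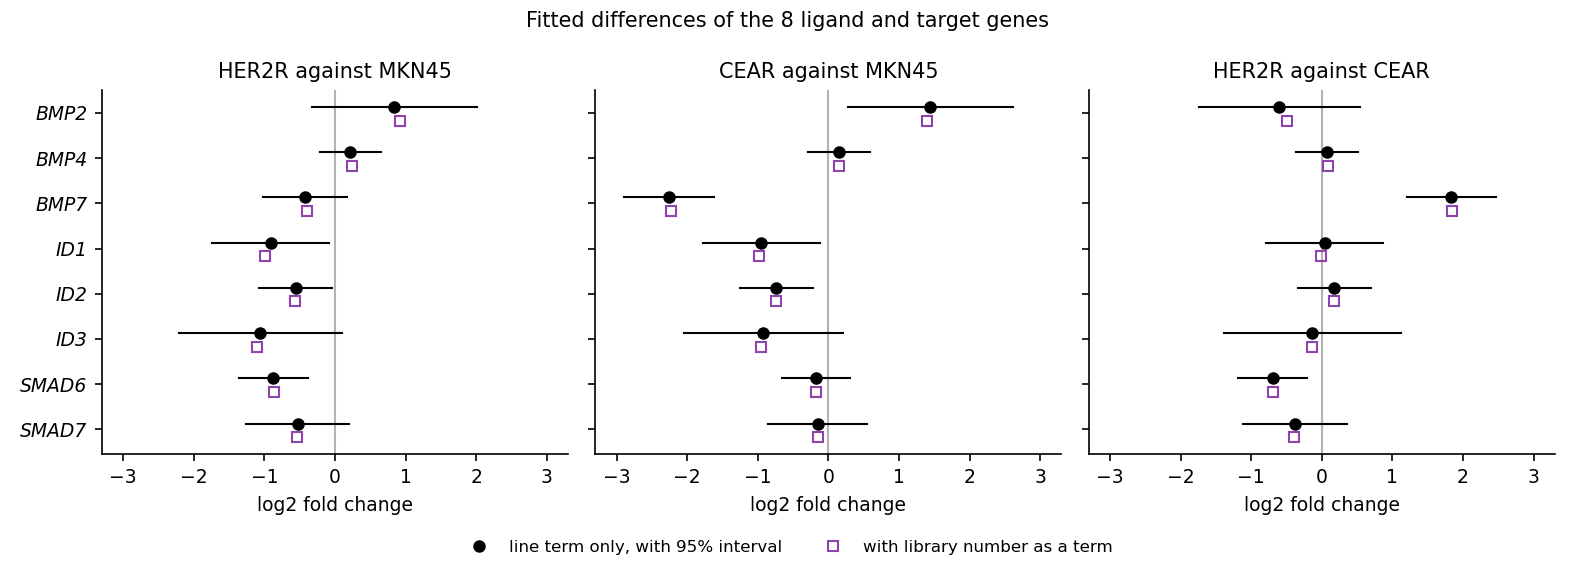
Fitted log2 fold change (horizontal axis) of the 3 ligands and 5 target genes in each comparison, with filled circles and 95% intervals from the model with a term for line and open squares from the model that also has library number as a term. BMP7 lies at -2.26 in CEAR and SMAD6 at -0.87 in HER2R against MKN45, and the ID genes lie between -0.56 and -1.06 in the derivatives and between -0.13 and 0.18 from one derivative to the other.

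Set side by side, the antagonist and target values were as follows. HER2R had NOG at 28.7 CPM and SOSTDC1 next to 0, with the ID genes at -0.56 to -1.06, SMAD6 at -0.87 and SMAD7 at -0.53 on the log2 scale against MKN45. CEAR had NOG at 0.291 CPM and SOSTDC1 at 0, with the ID genes at -0.74 to -0.95, SMAD6 at -0.17 and SMAD7 at -0.15. The ID genes thus stood below MKN45 in the line with abundant NOG and in the line with little of it, and in edgeR their differences passed with the block and not without it. ID2 in CEAR also passed with DESeq2 without a block (adjusted p = 0.0288). SMAD6 was called lower in HER2R and not in CEAR, and its difference between the derivatives passed with the block or with DESeq2 and not in the edgeR fit without the block. Further target genes are described below, among them MSX2, called lower in both derivatives, and BAMBI and HEY1, called higher in HER2R. MSX1 passed in edgeR as lower in HER2R than in MKN45 with the block and not without it. SMAD4, the partner of the activated SMADs, was listed at 0 counts in every library. With 3 lines, and with SOSTDC1 next to 0 in both derivatives, a link between any antagonist and any target gene cannot be told apart from other differences between the lines.

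Of the 8 ligand and target genes tested, 1 was called lower and 0 higher in HER2R against MKN45, where 9.74% of all tested genes were called (4.89% higher and 4.85% lower). In CEAR against MKN45, 1 was called lower and 0 higher, beside 6.19% of all genes (2.57% higher and 3.62% lower). HER2R against CEAR gave 1 called higher and 0 lower, beside 14.1% of all genes (7.32% higher and 6.75% lower). The comparisons share libraries and are not independent. At an unadjusted p under 0.05, edgeR had 3 of the 8 in HER2R against MKN45, 4 in CEAR against MKN45 and 2 between the derivatives, beside 28.6%, 23.3% and 32% of all genes. DESeq2 called 1, 3 and 2 of the 8 in these comparisons, beside 18.9%, 14% and 22.9% of all genes, and limma-voom 0, 1 and 1, beside 9.06%, 5.75% and 12.9%.

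With library number as a block, many more genes were called throughout. Of the 8, 1 was then called higher and 4 lower in HER2R against MKN45, beside 33.7% of all genes (16.2% higher and 17.5% lower). In CEAR against MKN45 it was again 1 higher and 4 lower, beside 25.8% (12% higher and 13.8% lower), and between the derivatives 1 higher and 1 lower, beside 38.2% (19.7% higher and 18.6% lower). The libraries of HER2R and MKN45 did not overlap for 6 of the 8, 1 higher and 5 lower, beside 57.1% of all genes (27.8% higher and 29.3% lower). Those of CEAR and MKN45 did not overlap for 5, 1 higher and 4 lower, beside 50.6% (25% higher and 25.6% lower). Those of HER2R and CEAR did not overlap for 3, 1 higher and 2 lower, beside 61.4% (31% higher and 30.3% lower). Without the block, 1 call among 8 genes is near the share of all genes, and nothing is read from it about the group. The median log2 fold change of the 8 was -0.54, -0.46 and -0.04, beside -0.02, -0.00 and 0 over all tested genes.

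Further BMP target genes were called in both directions. Of the 12 listed, 5 were tested, and 2 were called higher and 1 lower in HER2R against MKN45, 0 higher and 1 lower in CEAR against MKN45, and 2 higher and 1 lower in HER2R against CEAR. Of all tested genes 9.74%, 6.19% and 14.1% were called in these comparisons. With the block the counts were 2 higher and 3 lower, 1 and 2, and 3 and 1, beside 33.7%, 25.8% and 38.2% of all genes. At an unadjusted p under 0.05, edgeR had 5 of the 5 in HER2R against MKN45, 3 in CEAR against MKN45 and 4 between the derivatives. Of all genes, 28.6%, 23.3% and 32% had such a p. Counts on so few genes are not read against these shares. MSX2 (chr5:174724533-174730893, plus strand), a homeobox repressor and a classical BMP target, was at 73.2 and 69.3 CPM in MKN45, at 28.6 and 28.7 in HER2R and at 19.6 and 18.9 in CEAR. It fell by 1.32 on the log2 scale in HER2R (SE 0.128, edgeR adjusted p = 0.00422) and by 1.89 in CEAR (SE 0.130, edgeR adjusted p = 0.00241), and both calls held with each library left out. MSX2 was therefore lower in both derivatives, as the ID genes were in level, with replicates that lay close together. Between the derivatives MSX2 was higher in HER2R by 0.57 (edgeR adjusted p = 0.0342), a call that ended with any 1 library left out, at adjusted p from 0.0561 to 0.162.

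BAMBI, a pseudoreceptor that dampens BMP and TGF-beta signalling, went the other way in HER2R. It was at 3.68 and 3.82 CPM in MKN45, at 13.2 and 14.2 in HER2R and at 3.52 and 2.40 in CEAR. BAMBI rose in HER2R by 1.87 against MKN45 (SE 0.248, edgeR adjusted p = 0.0105) and stood 2.21 above CEAR (edgeR adjusted p = 0.00742), on the log2 scale. HEY1, a helix-loop-helix repressor that also answers to Notch, rose in HER2R by 2.35 (SE 0.351, edgeR adjusted p = 0.0144), from 0.602 and 0.705 CPM in MKN45 to 3.90 and 2.75. In CEAR HEY1 was at 1.54 and 1.55 CPM, above both MKN45 libraries, with a log2 fold change of 1.25 (edgeR adjusted p = 0.109, with the block 0.0374). MSX1, a relative of MSX2, was at 7.23 and 7.71 CPM in MKN45 and at 3.82 and 5.08 in HER2R. In CEAR it was at 8.36 and 8.49 CPM. The MSX1 log2 fold change against MKN45 was -0.75 in HER2R (edgeR adjusted p = 0.0929, with the block 0.0221) and 0.18 in CEAR (edgeR adjusted p = 0.702). MSX1 was lower in HER2R than in CEAR by 0.92 (edgeR adjusted p = 0.0477). DLX5 was at 4.82 and 2.09 CPM in MKN45, at 0.841 and 0.842 in HER2R and at 0.891 and 0.697 in CEAR. Its log2 fold change against MKN45 was -2.05 in HER2R (edgeR adjusted p = 0.0520, with the block 0.00439). In CEAR it was -2.14 (edgeR adjusted p = 0.0584, with the block 0.00434). ID4 and ATOH8 were among the 7 genes of the list too low to be tested.

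**Figure D4:**
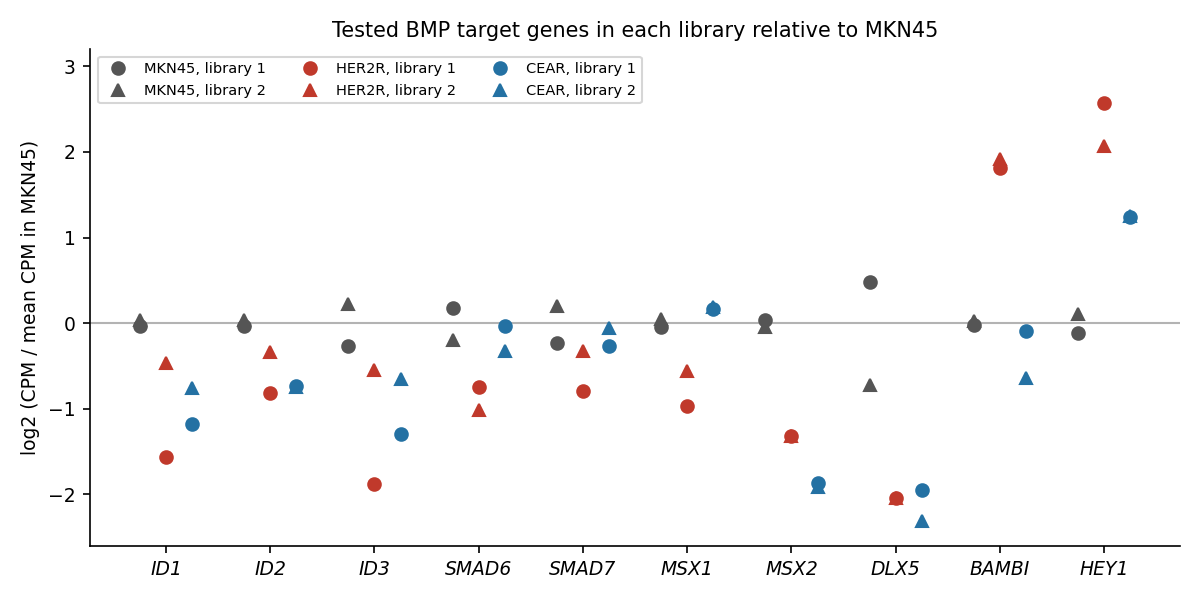
Log2 ratio of each library's CPM to the mean CPM in MKN45 for the 10 BMP target genes tested (5 described first and 5 of the further list), with colours for lines, circles for library 1 and triangles for library 2. ID1, ID2, ID3, MSX2 and DLX5 lie below 0 in all 4 libraries of the derivatives, SMAD6 and SMAD7 do so too but reach closer to 0 in CEAR, and BAMBI lies above 0 in both HER2R libraries and below 0 in both CEAR libraries.

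SMAD4, the common partner that activated SMADs need for most of their transcriptional output, was listed at 0 counts in all 6 libraries. A count of 0 allows up to 3 counts, which is 0.0531 to 0.0765 CPM depending on the library. SMAD4 lies at chr18:51028394-51085045, plus strand, and its annotated neighbours were counted, with ME2 at 50.0 to 62.7 CPM, ELAC1 at 2.39 to 4.65 and MEX3C at 25.7 to 40.3. SMAD4 has 13.1 kb of annotated exon. AC091551.1, a gene annotated on the same strand, shares 967 of these bases and is not among the symbols analysed here. The 0 counts cover the bases of SMAD4 that are not shared as well. How reads were counted, in shared bases or elsewhere, is not given in the sources used here, and whether the 0 reflects the cells or the counting was not tested. Of the receptor-activated SMADs, SMAD1 was at 24.9 and 27.0 CPM in MKN45, at 23.5 and 23.3 in HER2R and at 19.5 and 17.4 in CEAR, and SMAD5 was at 79.8 to 116 CPM over all libraries. SMAD9 was next to 0, at 5 and 12 counts in the MKN45 libraries, 3 and 20 in those of HER2R, and 0 and 1 in those of CEAR. SMAD1 and SMAD5 were not called in HER2R (edgeR adjusted p = 0.569 and 0.895) or in CEAR (edgeR adjusted p = 0.114 and 0.897) against MKN45. With the block, SMAD1 passed in CEAR (-0.49 on the log2 scale without the block, edgeR adjusted p with it = 0.0270), and SMAD9 passed as lower in CEAR than in MKN45 (edgeR adjusted p = 0.0422) and than in HER2R (edgeR adjusted p = 0.0116).

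Type I and type II receptors for BMP were counted in all lines. BMPR1A, a type I receptor, was at 29.3 to 41.3 CPM, BMPR2, the main type II receptor, at 32.4 to 51.5, and ACVR1, another type I receptor, at 13.04 to 22.5 over the 6 libraries. None of the 3 was called in a comparison without the block. With the block, BMPR1A (0.34, edgeR adjusted p = 0.0397) and BMPR2 (-0.44, edgeR adjusted p = 0.0198) passed in HER2R against MKN45, ACVR1 passed in CEAR against MKN45 (0.56, edgeR adjusted p = 0.0320), and ACVR1 passed in HER2R against CEAR (-0.48, edgeR adjusted p = 0.0408). BMPR1B was at 0.319 and 0.364 CPM in MKN45, 1.32 and 1.35 in HER2R, and 0 in both CEAR libraries. It rose in HER2R against MKN45 by 1.97 on the log2 scale (SE 0.422, edgeR adjusted p = 0.0471) and was at least 38.4-fold higher in HER2R than in CEAR. The call against MKN45 held in 3 of the 8 alternatives other than leaving out a library. In CEAR, BMPR1B was at least 9.71-fold lower than in MKN45 (edgeR adjusted p = 0.0587, with the block 0.0149). NEO1, a receptor for the BMP co-receptors of the RGM family, fell in HER2R by 0.95 against MKN45 (edgeR adjusted p = 0.0184) and stood 1.23 below CEAR (edgeR adjusted p = 0.00905). Of 11 tested receptors and co-receptors, 1 was called higher and 1 lower in HER2R against MKN45 and 0 in CEAR against MKN45. At an unadjusted p under 0.05, edgeR had 5 in HER2R and 4 in CEAR. These stand beside 9.74% and 6.19% of all genes called, and 28.6% and 23.3% at that unadjusted p. With the block 5 of the 11 were called in each of these comparisons, 3 higher and 2 lower in HER2R and 2 higher and 3 lower in CEAR, beside 33.7% and 25.8%.

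Of the 15 other extracellular antagonists listed, 11 were too low to be tested. NBL1, among those tested, was at 82.5 and 122 CPM in MKN45, at 127 and 162 in HER2R and at 99.3 and 126 in CEAR. Its mean per exon length was 28.5 CPM per kb in MKN45, 40.1 in HER2R and 31.4 in CEAR. On that scale NOG was at 15.2 in HER2R and SOSTDC1 at 8.31 in MKN45. NBL1 was not called without the block. With it, NBL1 passed as higher in HER2R than in MKN45 (edgeR adjusted p = 0.00726) and than in CEAR (edgeR adjusted p = 0.0280). CRIM1, a membrane protein that binds BMPs, rose in HER2R by 0.84 against MKN45 (SE 0.180, edgeR adjusted p = 0.0378), from 24.8 and 21.1 CPM to 37.7 and 44.5, and stood 1.38 above CEAR (edgeR adjusted p = 0.0106). TWSG1, which binds BMPs together with chordin, rose in CEAR by 0.81 (SE 0.175, edgeR adjusted p = 0.0480), from 71.4 and 56.3 CPM in MKN45 to 120 and 104, and was lower in HER2R than in CEAR by 0.87 (edgeR adjusted p = 0.0276). Of the 4 tested, 1 was called higher in HER2R and 1 in CEAR against MKN45, beside 9.74% and 6.19% of all genes called. With the block, 2 were called higher in HER2R, and 1 higher and 2 lower in CEAR, beside 33.7% and 25.8%. Of the 12 other BMP ligands, 3 were tested and 0 called in any comparison by edgeR. At an unadjusted p under 0.05, 2 of the 3 were higher in CEAR against MKN45 and 0 in the other comparisons, and with the block all 3 were called higher in CEAR against MKN45 and 2 lower in HER2R against CEAR. Of all genes, 23.3% had such an unadjusted p in CEAR against MKN45, and the block called 25.8% there and 38.2% between the derivatives.

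SMAD3, which carries TGF-beta and activin signals, rose in both derivatives, by 0.67 in HER2R (SE 0.132, edgeR adjusted p = 0.0305) and by 0.84 in CEAR (SE 0.133, edgeR adjusted p = 0.0197). Without the block it was the 1 called gene of the 12 tested SMADs and regulators in each of these comparisons, where 9.74% and 6.19% of all genes were called. With it 4 were called in each, 4 higher in HER2R, and 2 higher and 2 lower in CEAR, beside 33.7% and 25.8%. Between the derivatives, TOB1, a repressor of SMAD activity, was higher in HER2R by 0.79 (edgeR adjusted p = 0.0319). The 2 tested E proteins bound by ID proteins were not called by edgeR in any comparison without the block. At an unadjusted p under 0.05, 2 were higher in HER2R and 1 in CEAR against MKN45. Of all genes, 28.6% and 23.3% had such a p in either direction. With the block, 2 and 1 of them were called higher, beside 16.2% and 12% of all genes.

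On the TGF-beta and activin arm, CTGF, a matricellular protein, fell in HER2R by 3.47 (SE 0.656, edgeR adjusted p = 0.0267), from 11.6 and 5.62 CPM in MKN45 to 0.560 and 0.995, with -2.84 without library 1 of MKN45. In CEAR CTGF was at 2.82 and 0.921 CPM, a log2 fold change of -2.22 (edgeR adjusted p = 0.0745, with the block 0.00332). LTBP3, which binds latent TGF-beta, rose in HER2R by 1.01 (SE 0.212, edgeR adjusted p = 0.0356) and stood 0.89 above CEAR (edgeR adjusted p = 0.0399). The ligand gene TGFB2 fell in CEAR by 3.03 against MKN45 (SE 0.629, edgeR adjusted p = 0.0433), from 3.08 and 1.66 CPM to 0.482 and 0.112, with -4.39 without library 1 and -2.31 without library 2 of CEAR. HER2R exceeded CEAR in TGFB2 by 3.91 (edgeR adjusted p = 0.0146), in INHBB, the activin beta B subunit, by 3.97 (edgeR adjusted p = 0.0339), and in PMEPA1, a TGF-beta target that restrains the pathway, by 1.72 (edgeR adjusted p = 0.0144). Against MKN45, PMEPA1 passed in edgeR with the block and not without it. With the block it was higher in HER2R (edgeR adjusted p = 0.0112) and lower in CEAR (edgeR adjusted p = 0.0102). Without library 1 or 2 of CEAR, the TGFB2 value between the derivatives was 5.26 or 3.19. INHBB rests on few counts, and its value was 8.42 or 2.95 without these libraries, the first of which depends on the prior count. It was at 0.688 and 1.22 CPM in HER2R and 0.120 and 0 CPM in CEAR.

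The WNT list is of interest because SOSTDC1 also binds WNT co-receptors. LRP4, a receptor that binds SOSTDC1 and its relative sclerostin, rose in HER2R by 2.32 against MKN45 (SE 0.325, edgeR adjusted p = 0.0125), from 8.41 and 4.82 CPM to 31.1 and 35.4, and was at 14.3 and 21.7 CPM in CEAR (edgeR adjusted p = 0.0528, with the block 0.00826). LRP5 and the ubiquitin ligase RNF43 were higher in HER2R than in CEAR, by 0.65 (edgeR adjusted p = 0.0266) and 1.01 (edgeR adjusted p = 0.0180). Of the 8 tested genes of this list, 1 was called in HER2R against MKN45 and 0 in CEAR against MKN45. At an unadjusted p under 0.05, edgeR had 4 in HER2R and 3 in CEAR. Of all genes 9.74% and 6.19% were called, and 28.6% and 23.3% had such an unadjusted p. With the block 3 were called higher and 1 lower in HER2R, and 1 higher and 2 lower in CEAR, beside 33.7% and 25.8%.

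Over all 8 lists of the wider pathway, 55 of 88 genes were tested, and 10 were called in HER2R against MKN45 (18.2%, 7 higher and 3 lower), 4 in CEAR against MKN45 (7.27%, 2 higher and 2 lower) and 14 in HER2R against CEAR (25.5%, 11 higher and 3 lower). These stand beside 9.74%, 6.19% and 14.1% of all tested genes. Their median log2 fold changes were 0.32, 0.08 and 0.18, also with the gene at 0 counts in CEAR set at its bound. Of the 10, 4 and 14 calls, 1, 1 and 0 held with every library left out in turn, the 1 being MSX2 both times. The others ended in 2 to 6 of the 6 refits, at adjusted p up to 0.229, 0.185 and 0.213. In HER2R against MKN45, the calls of BMPR1B and SMAD3 ended without any 1 library, that of CRIM1 without any but library 2 of CEAR, those of NEO1, BAMBI, HEY1 and LTBP3 without any 1 library of HER2R or MKN45, that of CTGF without either HER2R library or library 1 of MKN45, and that of LRP4 without either HER2R library. In CEAR against MKN45, those of TWSG1, SMAD3 and TGFB2 ended without any 1 library. Between the derivatives, the calls of BMPR1B, NEO1 and BAMBI ended without either HER2R library, those of CRIM1, TGFB2 and PMEPA1 also without library 2 of CEAR, those of TWSG1, TOB1, INHBB, LRP5 and RNF43 without any 1 library of HER2R or CEAR, and those of MSX1 and MSX2 without any 1 library. That of LTBP3 ended without either HER2R library, library 1 of MKN45 or library 1 of CEAR. Of the 8 alternatives other than leaving out a library, 3 called BMPR1B in HER2R against MKN45. TWSG1 and TGFB2 in CEAR against MKN45 were each called by 4, and MSX1 between the derivatives by 5. The other calls held in 6 to 8 of them.

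**Figure D5:**
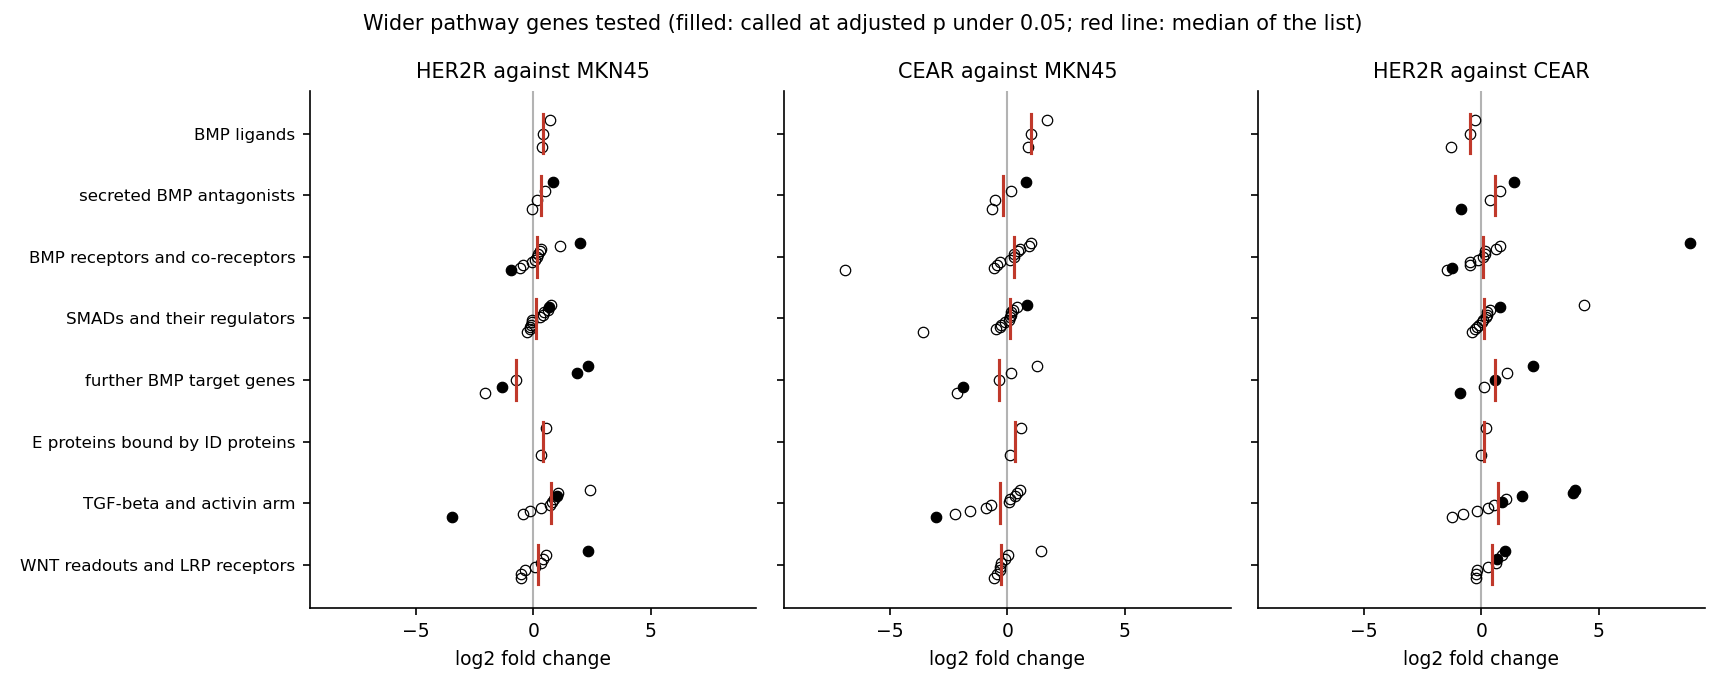
Fitted log2 fold change (horizontal axis) of each tested gene of the 8 wider pathway lists in the 3 comparisons, with filled points for genes called at an adjusted p under 0.05, open points for the rest and a red line at each list's median. In HER2R against MKN45 called genes lie on both sides of 0 among the receptors, the target genes and the TGF-beta arm, and the outlying point among the receptors in the comparisons with CEAR is BMPR1B, which had 0 counts in CEAR, so its fitted position depends on the prior count.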

How the data were processed

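Total RNA of 3 lines was sequenced in 2 libraries each. Per the labels' protocols, RNA was isolated with RNeasy columns and made into stranded total RNA libraries with Ribo-Zero Plus. The deposited table holds raw, unnormalized counts for each gene symbol. Aligner, counting program, annotation and strand setting were not given in the sources used here, while the submitters' processing notes name GRCh38 and limma without version or role.

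The test was that of edgeR 4.0.16 under R 4.3.3 (quasi-likelihood method of edgeR 4, TMM scaling, filterByExpr by group, 1 term per line, all 6 libraries in 1 fit, 3 residual and 3.51 prior degrees of freedom). The filter kept 14958 of 29744 symbols. Benjamini-Hochberg adjustment ran over these, and called means an adjusted p under 0.05. CPM uses TMM-scaled totals of tested genes. An SE is the fitted log2 value divided by the root of F, and intervals are at 95%. With 0 counts in a line, folds use a floor of 3 counts over the line, and with 1 to 3 counts the ratio of summed counts with a counting interval. Exon lengths and positions are from GENCODE 29 (GRCh38), which held all 10 genes, and promoters from RefSeq. Counts of the 2 libraries of a line differed, with chi-square values of 51.4 to 108 per degree of freedom, so none was a copy. The scripts were tested on simulated data.

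The 10 genes, the lists, the tests and the rule for named genes were chosen with earlier results of these data known. Named were the 10 genes, up to 3 called genes per direction, list and comparison, ACVR1, BMPR1A, BMPR2, SMAD1, SMAD4 and SMAD5 in any case, and the 3 genes nearest in profile to NOG, SOSTDC1 and the ID mean. ELAC1, ME2, MEX3C, ID4, ATOH8, SMAD9, NBL1, DLX5, BMP8A, BMP8B and single marker genes were named after values were seen. Of 114 list symbols 113 matched, 2 of them under older names (HFE2 and CTGF), and TRAC did not. Library numbers are taken from the labels. The difference of library 2 minus library 1 correlated between lines at 0.378 (MKN45 and HER2R), 0.545 (MKN45 and CEAR) and 0.355 (HER2R and CEAR) over tested genes, which are not independent. A fit with the number as a replicate block is therefore given for the ligands and target genes named at the start where it changes a call. For other genes it is given for some contrasts only. Alternatives were the block, RLE size factors, 2 other filters, DESeq2 1.42.0, limma-voom (limma 3.58.1), the compared lines alone and leaving out each library, which takes a line's lone remaining library to vary as the other lines do. The legacy edgeR method was added after seeing the data.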

Additional observations from a re-analysis of the deposited data

How the results depend on the processing

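With the replicate block, which pairs libraries by number, 5040 genes were called in HER2R against MKN45, 3861 in CEAR against MKN45 and 5717 between the derivatives, where 1457, 926 and 2105 were called without it. DESeq2 called 2820, 2098 and 3432, the compared lines alone 405 in CEAR against MKN45, and leaving out 1 library gave 189 to 1136, 253 to 428 and 103 to 1856. Of the 8 ligand and target genes, the block called 5, 5 and 2 instead of 1, 1 and 1, and DESeq2 called 3 in CEAR against MKN45 and 2 in HER2R against CEAR. No filter, limma-voom and the compared lines alone each called 0 in HER2R against MKN45, and leaving out 1 library gave 0 to 0, 1 to 1 and 0 to 1. Of the wider pathway genes, the block called 28, 25 and 28 instead of 10, 4 and 14. DESeq2 called 18 in HER2R against MKN45 and 12 in CEAR against MKN45, where no filter gave 2 and the compared lines alone 1, and leaving out 1 library gave 1 to 8, 1 to 2 and 0 to 12. The ID1 log2 fold change between the derivatives turned to -0.0117 with the block and -0.0477 with limma-voom. Leaving out 1 library gave values on both sides of 0 for BMP7 in HER2R against MKN45 (-0.76 to 0.0197), for BMP4 (-0.0589 to 0.39), SMAD6 (-0.35 to 0.0281) and SMAD7 (-0.35 to 0.0794) in CEAR against MKN45, and between the derivatives for BMP2 (-1.11 to 0.17), BMP4 (-0.0637 to 0.21), ID1 (-0.61 to 0.49), ID2 (-0.0824 to 0.40) and ID3 (-0.94 to 0.38). Leaving out a library leaves a line with fewer samples; the cause of the other differences was not tested. The ratio of SOSTDC1 rests on 1 count in HER2R and 0 in CEAR, so counting depth limits both.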
